A study of Homo sapiens with 6 samples.

Results

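The 10 genes described here encode feedback inhibitors of mitogen-activated protein (MAP) kinase signalling. They are the dual-specificity phosphatase genes DUSP1, DUSP2, DUSP4, DUSP5, DUSP6 and DUSP10, the Sprouty genes SPRY2 and SPRY4, and the Sprouty-related genes SPRED1 and SPRED2. They were taken by gene symbol from tables of 27968 genes, and all 10 were among the 15072 genes with enough reads to be tested. RNA was sequenced from H23, a human lung adenocarcinoma line, 48 hours after lipid transfection. One group of 3 libraries received an siRNA against HOTAIR-N, which belongs to the long non-coding RNA gene HOTAIR, and the other group of 3 libraries received a control siRNA. Each library came from its own transfection, and apart from the siRNA both groups had the same line, medium and transfection reagent. Whether 1 or several siRNA duplexes were used per group is not given in the sources used here, so that loss of HOTAIR and other effects of the siRNA cannot be told apart.

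In the RAS-ERK pathway, growth factor receptors activate RAS, and RAS starts a relay of the kinases RAF, MEK and ERK. ERK turns on transcription of its own inhibitors, among them the DUSP and Sprouty genes, whose mRNAs are short-lived and are widely read as a record of recent ERK activity. DUSP proteins remove phosphate from ERK, JNK or p38 kinases, Sprouty proteins act between the receptor and RAF, and SPRED proteins bring the RAS inactivator neurofibromin to the membrane. In lung adenocarcinoma driven by RAS or EGFR this feedback limits how far ERK can be activated.

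The libraries held 32715361 to 35329948 expected counts with HOTAIR-N siRNA and 34715341 to 36578681 with control siRNA. HOTAIR had 88, 74 and 82 expected counts with HOTAIR-N siRNA, against 169, 148 and 202 with control siRNA, which is a log2 fold change of -1.04 (SE 0.14, adjusted p = 1.32e-05). Of 5 epithelial markers all 5 had at least 1 CPM, with summed levels of 2920 to 3290 TPM with HOTAIR-N siRNA and 3710 to 4420 TPM with control siRNA. Of these, KRT18 fell (log2 fold change -0.71), CDH1 rose (1.07), and KRT8, KRT19 and EPCAM did not pass. Fibroblast markers summed to 3.46 to 4.03 TPM with HOTAIR-N siRNA and 2.47 to 2.59 TPM with control siRNA, and endothelial markers to 0.35 to 0.43 TPM with HOTAIR-N siRNA and 0.21 to 0.33 TPM with control siRNA. LUM of the fibroblast and VWF of the endothelial markers rose, each by 0.96 on the log2 scale. LUM had 47 to 99 expected counts per library and VWF 7 to 19. VWF did not pass with DESeq2 (adjusted p = 0.0842) or without control replicate 1 (adjusted p = 0.0517). COL3A1 (-0.07) and PDGFRB (-0.46) of the fibroblast and CDH5 (0.57) of the endothelial markers did not pass. The remaining fibroblast and endothelial markers had too few reads to be tested. Leukocyte markers summed to 1.77 to 2.68 TPM with HOTAIR-N siRNA and 2.58 to 3.08 TPM with control siRNA, with CD3E at 0 in all libraries. The part of these markers in the values of the 10 genes was not tested. TPM is a length-adjusted level scaled within each library, CPM is the count scaled to a common library size, without length, and a positive log2 fold change means higher with HOTAIR-N siRNA. Adjusted p-values are from edgeR's quasi-likelihood test with Benjamini-Hochberg adjustment over all tested genes.

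Of the 10 genes, 7 rose with HOTAIR-N siRNA, 2 fell, and SPRED1 did not pass the test at an adjusted p of 0.05. DUSP1, DUSP2, DUSP4, DUSP5, DUSP6, SPRY2 and SPRY4 were the genes that rose, and DUSP10 and SPRED2 were those that fell. Change was common in this experiment, with 57.5% of all tested genes called in either direction, 28.7% called higher and 28.8% called lower. The libraries of the groups did not overlap for 9 of the 10 genes, against 62.9% of all tested genes. The median log2 fold change of the 10 genes was 0.47, and that of all tested genes 0.0061. In a test against a fold of 1.5, which called 11.3% of all tested genes, 3 of the 10 were higher (DUSP2, DUSP6 and SPRY4) and 1 was lower (SPRED2). As these are bulk samples, fewer cells with an mRNA and less of it per cell cannot be told apart.

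**Figure D1:**
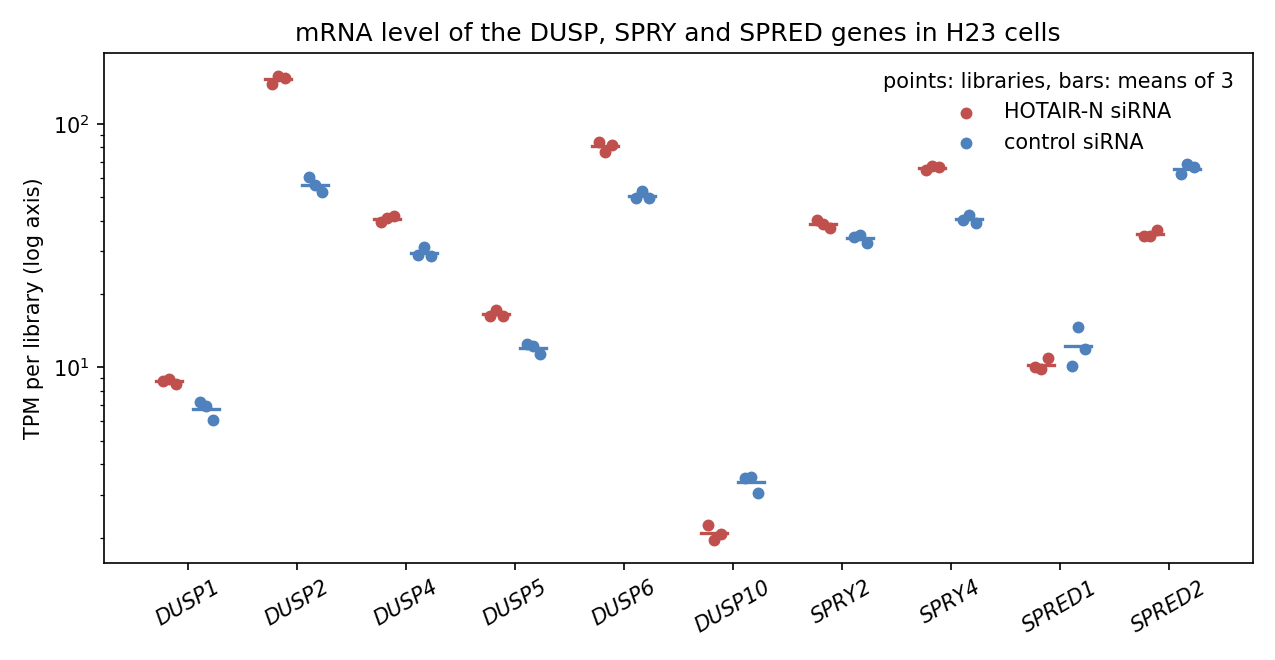
TPM of each gene in each library on a log axis, with HOTAIR-N siRNA left of control siRNA and bars at the means of 3 libraries. The points of the groups are apart for every gene but SPRED1, and DUSP2 reaches the highest level, at 146 to 157 TPM with HOTAIR-N siRNA.

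The inducible nuclear phosphatases rose together, with DUSP2 far ahead of the others. DUSP2, which acts on ERK and p38 in the nucleus and is best known from activated lymphocytes, had 146, 157 and 155 TPM with HOTAIR-N siRNA and 60.5, 56.0 and 52.3 TPM with control siRNA. Every HOTAIR-N siRNA library was thus above every control library by a wide margin. The expected counts behind these levels were 3911, 4316 and 4447 with HOTAIR-N siRNA, against 1683, 1481 and 1496 with control siRNA. DUSP2 had a log2 fold change of 1.49 (SE 0.07, adjusted p = 2.54e-10), which is 2.8-fold. Its change was larger in size than that of 97.1% of tested genes, and 187 genes had a higher log2 fold change. In the order of the 10 genes by TPM it came first with HOTAIR-N siRNA and second, after SPRED2, with control siRNA.

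DUSP1, a nuclear phosphatase that prefers p38 and JNK over ERK and is induced by stress as well as by growth factors, was expressed at a low level. It had 8.77, 8.97 and 8.58 TPM with HOTAIR-N siRNA and 7.22, 6.91 and 6.08 TPM with control siRNA. The groups did not overlap, but the difference was modest, at a log2 fold change of 0.43 (SE 0.09, adjusted p = 0.00125). DUSP1 rests on 288 to 301 expected counts in the HOTAIR-N siRNA libraries and 213 to 246 in the control libraries.

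The DUSP1 promoter is known to respond to the factor CREB, which binds the cAMP response element. In RefSeq windows of 250 bases before to 50 after each gene's start (GRCh38.p14), 8 of the 10 genes had an entry, with 12 windows between them because some genes have several annotated starts. Of the 12 windows, 1, that of DUSP1, held the full element TGACGTCA, which 1.8% of all 35116 windows of this length hold. The element begins 125 bases before the DUSP1 start, on chromosome 5. The short element TGACG, the start of the full one,, which 24.6% of windows hold on either strand, was found in 5 of the 12 windows, 1 for each of 5 genes (DUSP1, DUSP10, SPRY2, SPRY4 and SPRED2), which include genes that rose and both genes that fell. The short element is part of the full one, so the DUSP1 match is counted in both. Of the 12 windows, the AP-1 element TGANTCA, in 7.7% of all windows, was found only in 1 of SPRED2, the ETS core CCGGAA, in 17.2%, only in 1 of SPRY2, and a CArG box, in 1.3%, in none. These matches describe the letters only. The 30 bases around the DUSP1 element and around the short elements of SPRY2 and SPRY4, the Sprouty genes that rose, are shown on the strand of the gene with the match in capitals, from chr5:172771302-172771331, chr13:80341299-80341328 and chr5:142324298-142324327, all on the minus strand.
DUSP1: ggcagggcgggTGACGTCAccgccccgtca
SPRY2: ctcggatccacaTGACGccatttactgctg
SPRY4: tcttcggagccgTGACGgactgaattccct

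DUSP4, a nuclear phosphatase of ERK and JNK, had 39.4, 41.2 and 41.9 TPM with HOTAIR-N siRNA, against 29, 31.2 and 28.6 TPM with control siRNA. Its log2 fold change was 0.51 (SE 0.05, adjusted p = 1.4e-06), with no overlap between the groups. DUSP5, a nuclear phosphatase specific for ERK, had 16.3, 17.2 and 16.3 TPM with HOTAIR-N siRNA and 12.5, 12.2 and 11.3 TPM with control siRNA. It moved by the same amount as DUSP4, with a log2 fold change of 0.51 (SE 0.07, adjusted p = 2.91e-05). In TPM, DUSP4 stayed above DUSP5 in every library of both groups.

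DUSP6, the cytoplasmic phosphatase specific for ERK and one of the most used readouts of ERK activity, rose more than DUSP4 and DUSP5 in fitted fold change. It had 84.2, 77.0 and 81.7 TPM with HOTAIR-N siRNA and 49.5, 53.1 and 49.6 TPM with control siRNA. The lowest HOTAIR-N siRNA library was well above the highest control library. DUSP6 had a log2 fold change of 0.72 (SE 0.06, adjusted p = 6.68e-08), or 1.64-fold. The TPM ratio of DUSP6 to DUSP5 was 5.16, 4.48 and 5 with HOTAIR-N siRNA and 3.96, 4.37 and 4.39 with control siRNA. The mean log2 ratio was 2.28 ± 0.11 with HOTAIR-N siRNA and 2.08 ± 0.08 with control siRNA (SD, n = 3 each, exact two-sided permutation test p = 0.1, adjusted over 3 ratios p = 0.1). This p is the smallest that 3 against 3 libraries can give, so that the test cannot pass an adjusted p of 0.05.

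DUSP10, which acts on p38 and JNK and not on ERK, moved in the opposite direction to the other 5 phosphatases. It had 2.26, 1.96 and 2.07 TPM with HOTAIR-N siRNA and 3.51, 3.55 and 3.04 TPM with control siRNA. Every HOTAIR-N siRNA library was below every control library. DUSP10 fell by 0.66 on the log2 scale (SE 0.12, adjusted p = 0.000295). It was the lowest of the 10 genes in both groups, on 89 to 98 expected counts with HOTAIR-N siRNA and 144 to 162 with control siRNA, and has the widest error of the 10.

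Added together, the 6 phosphatase mRNAs reached 297, 304 and 306 TPM with HOTAIR-N siRNA, against 162, 163 and 151 TPM with control siRNA. Most of the difference was DUSP2 and DUSP6. DUSP2 made up 50.6% ± 1.34 of the sum with HOTAIR-N siRNA and 35.4% ± 1.63 with control siRNA (SD, n = 3 each). DUSP10 made up 0.695% ± 0.06 with HOTAIR-N siRNA and 2.12% ± 0.0908 with control siRNA (SD, n = 3 each). The 3 phosphatases most directed at ERK, DUSP4, DUSP5 and DUSP6, summed to 138 ± 2.62 TPM with HOTAIR-N siRNA and 92.3 ± 3.71 TPM with control siRNA (SD, n = 3 each). These sums are descriptions and were not tested.

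**Figure D2:**
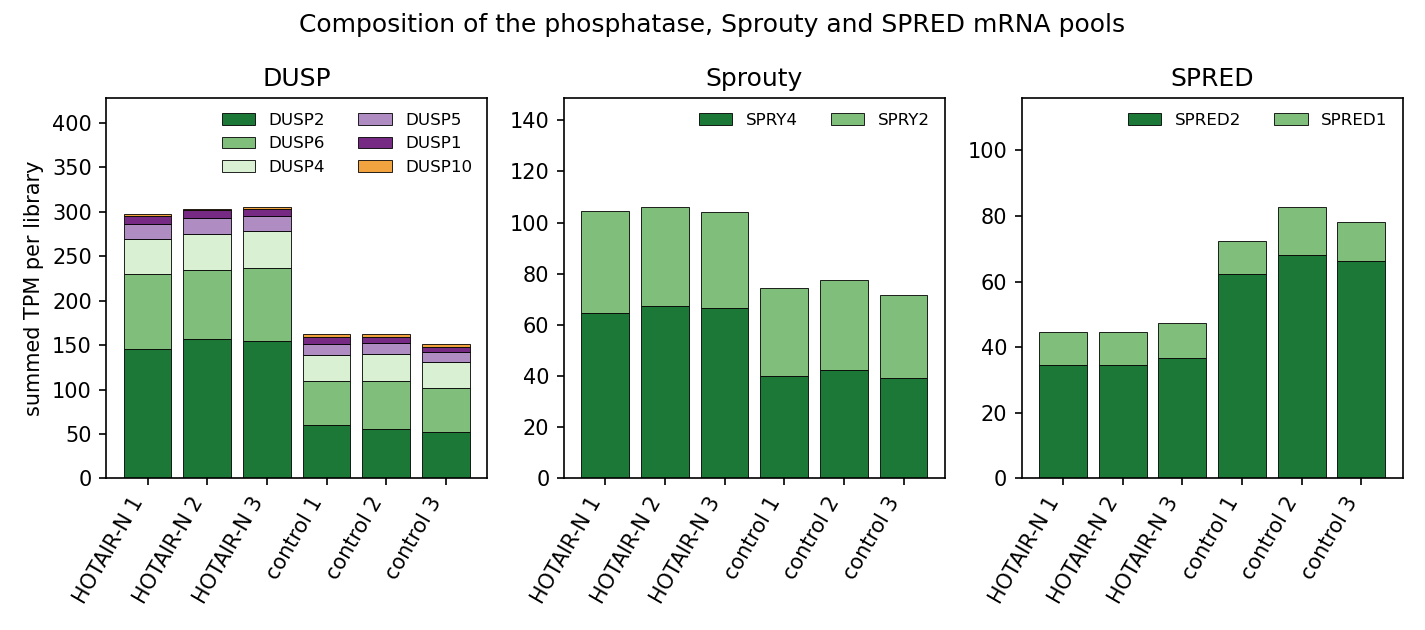
Summed TPM per library, stacked by gene, for the 6 phosphatases, SPRY2 with SPRY4, and SPRED1 with SPRED2, with the HOTAIR-N siRNA libraries left of the control libraries. The phosphatase and Sprouty sums are higher in all 3 HOTAIR-N siRNA libraries and the SPRED sum is lower in all 3, at 44.5 to 47.5 TPM against 72.4 to 82.8 TPM with control siRNA.

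Both Sprouty genes rose, SPRY4 by more than SPRY2. Sprouty proteins are phosphorylated on receptor activation and then block the step from receptor to RAS or RAF, and ERK induces their genes. SPRY4 had 64.6, 67.3 and 66.5 TPM with HOTAIR-N siRNA, against 40.1, 42.4 and 39.3 TPM with control siRNA. Within each group these values lie close together, and the groups are far apart. SPRY4 had a log2 fold change of 0.76 (SE 0.05, adjusted p = 1.49e-08), or 1.69-fold. SPRY2 had 40.1, 38.9 and 37.5 TPM with HOTAIR-N siRNA and 34.2, 35.1 and 32.4 TPM with control siRNA. The groups did not overlap, and its log2 fold change of 0.25 (SE 0.06, adjusted p = 0.00389) was the smallest among the 7 genes that rose.

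The ratio of SPRY4 to SPRY2 in TPM was 1.61, 1.73 and 1.77 with HOTAIR-N siRNA and 1.17, 1.21 and 1.21 with control siRNA. On the log2 scale the ratio was 0.77 ± 0.07 with HOTAIR-N siRNA and 0.26 ± 0.03 with control siRNA (SD, n = 3 each), a difference of 0.51. An exact permutation test, two-sided, had p = 0.1 (adjusted over 3 ratios p = 0.1), again the smallest that this number of libraries allows.

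SPRY4 has a non-coding neighbour inside the gene, SPRY4-IT1, which by RefSeq's positions lies within SPRY4 and overlaps 0 of its annotated coding-transcript exons. It was looked at after the SPRY4 values were seen. SPRY4-IT1 had 141, 146 and 176 expected counts with HOTAIR-N siRNA and 42, 53 and 56 with control siRNA, a log2 fold change of 1.66 (SE 0.14, adjusted p = 1.49e-07). As SPRY4-IT1 lies within SPRY4, its reads and those of unspliced SPRY4 RNA cannot be told apart here. Whether the counting used strand is not given in the sources used here. SPRY4-AS1, a gene whose name marks it as antisense to SPRY4, had 11 to 14 expected counts with HOTAIR-N siRNA and 13 to 22 with control siRNA and did not pass the test (adjusted p = 0.217).

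SPRED2 fell, while SPRED1 did not pass the test. SPRED2 had 34.7, 34.7 and 36.6 TPM with HOTAIR-N siRNA, against 62.3, 68.1 and 66.2 TPM with control siRNA. The highest HOTAIR-N siRNA library was far below the lowest control library. SPRED2 fell by 0.84 on the log2 scale (SE 0.05, adjusted p = 6.44e-09), to 0.557 of its control level. Its expected counts were 2546, 2637 and 2877 with HOTAIR-N siRNA and 4790, 4959 and 5178 with control siRNA. With control siRNA SPRED2 had the highest TPM of the 10 genes, and with HOTAIR-N siRNA it was the sixth.

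SPRED1, whose loss causes Legius syndrome, had 10.0, 9.80 and 10.9 TPM with HOTAIR-N siRNA and 10.1, 14.7 and 11.9 TPM with control siRNA. Control replicate 1 lay within the range of the HOTAIR-N siRNA libraries and the other 2 control libraries lay above it. The log2 fold change was -0.21 (SE 0.09, adjusted p = 0.0648). Without control replicate 1 it was -0.31 (adjusted p = 0.00138) and without control replicate 2 it was -0.09 (adjusted p = 0.379), so that the SPRED1 call rests on which control libraries are used. With no filter on low counts the adjusted p was 0.0332. SPRED1 has the longest transcript of the 10, at 7255 nt. In control replicate 1, log2 CPM minus the mean of control replicates 2 and 3 was -0.33 for SPRED1, a median of -0.11 over 1262 genes of at least 7000 nt, and a median of -0.01 over all tested genes. The part of transcript length in the SPRED1 value was not tested.

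The ratio of SPRED2 to SPRED1 in TPM was 3.46, 3.54 and 3.36 with HOTAIR-N siRNA and 6.16, 4.64 and 5.55 with control siRNA. The log2 ratio was 1.79 ± 0.04 with HOTAIR-N siRNA and 2.44 ± 0.21 with control siRNA (SD, n = 3 each), a difference of -0.65 (exact two-sided permutation test p = 0.1, adjusted over 3 ratios p = 0.1). SPRED2 made up 77.6% ± 0.458 of the SPRED1 and SPRED2 sum with HOTAIR-N siRNA and 84.3% ± 1.91 with control siRNA (SD, n = 3 each).

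The order of the 10 genes by mean TPM was DUSP2, DUSP6, SPRY4, DUSP4, SPRY2, SPRED2, DUSP5, SPRED1, DUSP1 and DUSP10 with HOTAIR-N siRNA. It was SPRED2, DUSP2, DUSP6, SPRY4, SPRY2, DUSP4, SPRED1, DUSP5, DUSP1 and DUSP10 with control siRNA. The ranges of DUSP4 and SPRY2 overlapped with HOTAIR-N siRNA, as did those of DUSP2 and DUSP6 and of SPRED1 and DUSP5 with control siRNA, and the other neighbours in each order did not overlap.

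Among the remaining members of the same families the direction was mixed, as it was over all tested genes (28.7% called higher, 28.8% lower). Of 4 other MAP kinase phosphatases and the related pseudophosphatase STYXL1, 1 rose, 2 fell and 2 did not pass. DUSP8, which acts on JNK and p38, rose (log2 fold change 0.55, SE 0.11, adjusted p = 0.000442). DUSP7, a cytoplasmic ERK phosphatase close to DUSP6, fell to 21.4 ± 1.09 CPM with HOTAIR-N siRNA, against 29.2 ± 1.74 CPM with control siRNA (SD, n = 3 each). This was a log2 fold change of -0.45 (SE 0.07). DUSP16, which acts on JNK and p38, had -0.16 (adjusted p = 0.0301). It did not pass without control replicate 2 (0.0977) or HOTAIR-N siRNA replicate 2 (0.112) or 3 (0.125), nor with upper-quartile (0.0594) or unscaled (0.0539) library sizes. It also did not pass with the replicate number as a block (0.0901) or in the test against a fold of 1.5. DUSP9, a cytoplasmic ERK phosphatase, had 0.10 (adjusted p = 0.337).

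Of the other 3 Sprouty and SPRED genes, 2 rose and 1 did not pass. SPRED3, the third SPRED gene, rose to 5.53 ± 0.37 CPM with HOTAIR-N siRNA, against 2.18 ± 0.235 CPM with control siRNA (SD, n = 3 each). This was a log2 fold change of 1.35 (SE 0.12, adjusted p = 3.47e-07). SPRED3 moved opposite to SPRED2, at a level far below it, so that the sum of the 3 SPRED genes was still 47.7 ± 1.8 TPM with HOTAIR-N siRNA and 78.6 ± 5.3 TPM with control siRNA (SD, n = 3 each). SPRY1 had 0.22 (adjusted p = 0.0219) and did not pass without control replicate 2 (0.062) or HOTAIR-N siRNA replicate 1 (0.0534), 2 (0.061) or 3 (0.0648). It also did not pass with the replicate number as a block (0.0509) or in the test against a fold of 1.5. SPRY3 had 0.08 (adjusted p = 0.719). Of 13 atypical dual-specificity phosphatases, 9 were tested, 4 rose and 1 fell. DUSP22, DUSP3 and DUSP23 rose by 0.67, 0.58 and 0.33 on the log2 scale and DUSP18 fell by 0.48.

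**Figure D3:**
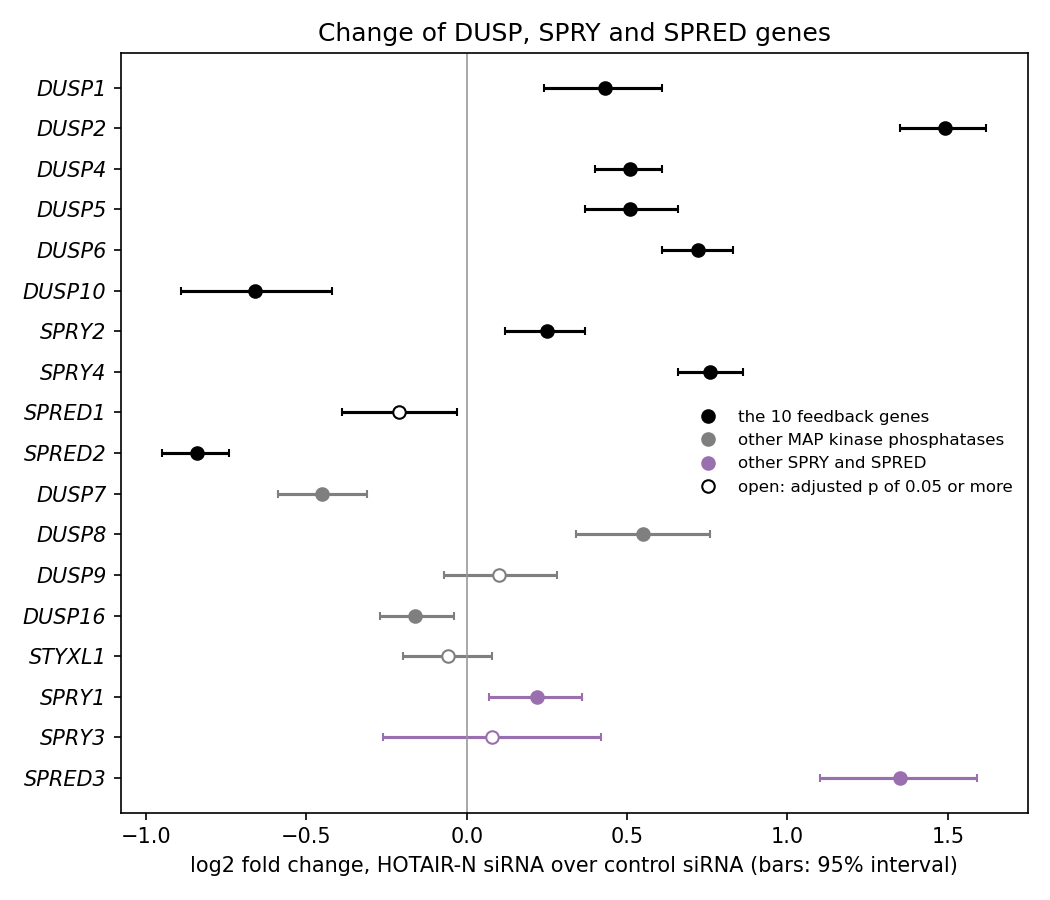
Log2 fold change of each family gene, HOTAIR-N siRNA over control siRNA, with bars for the 95% interval and open points for an adjusted p of 0.05 or more. DUSP2 (1.49) and SPRED3 (1.35) lie highest and SPRED2 (-0.84) and DUSP10 (-0.66) lowest.

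The isoform tables list 21 RefSeq isoforms of the 10 genes. DUSP1, DUSP2, DUSP5 and SPRED1 have a single isoform each, and the other 6 genes have 17 between them. RSEM divides reads that isoforms share by a model, and the tables do not state the error of that step. Of the 15 tested isoforms of these 6 genes, 7 rose and 2 fell, where 9.39% of all tested isoforms were called higher and 10.1% lower.

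The estimated isoform shares of SPRY4 differed between the groups, without a test. The isoform NM_030964 made up 22.6%, 29.4% and 21.2% of the gene with HOTAIR-N siRNA, against 9.33%, 11.5% and 4.28% with control siRNA. NM_001127496, the main isoform, made up 61.2%, 55.8% and 61.9% with HOTAIR-N siRNA, against 83.2%, 77.5% and 87.4% with control siRNA. For both isoforms the shares of the groups did not overlap. NM_030964 had a log2 fold change of 2.30 (SE 0.40, adjusted p = 0.014), and did not pass without HOTAIR-N siRNA replicate 2 (2.12, adjusted p = 0.0513). NM_001127496 had a log2 fold change of 0.29 (SE 0.05, adjusted p = 0.0155) and did not pass without HOTAIR-N siRNA replicate 1 (adjusted p = 0.0683) or 3 (adjusted p = 0.0678). By RefSeq name, NM_030964 matches a GENCODE 29 transcript of 3 exons with a coding length of 966 nt and NM_001127496 one of 2 exons and 897 nt. The isoforms NM_001293289 and NM_001293290 match that same transcript of 2 exons, so this match does not tell them from NM_001127496. The shares of isoforms were not tested, and the single isoform tests do not compare one isoform with another.

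SPRED2 fell without a clear change in its make-up. The isoforms NM_181784 and NM_001128210 start 65527 bases apart in GENCODE 29. NM_181784 made up 61.5%, 77.7% and 68.4% of the gene with HOTAIR-N siRNA and 73.8%, 67.4% and 62.0% with control siRNA, and these ranges overlapped. NM_181784 had a log2 fold change of -0.80 (SE 0.10, adjusted p = 0.00448) and kept its call in all 6 fits that leave out 1 library. NM_001128210 had -0.90 (SE 0.25) and did not pass (adjusted p = 0.059).

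In SPRY2 the main isoform NM_005842 did not pass (log2 fold change 0.13, adjusted p = 0.141). It made up 79.95%, 79.96% and 84.02% of the gene with HOTAIR-N siRNA, against 85.29%, 90.37% and 90.22% with control siRNA. The minor isoform NM_001318537 made up 11.1%, 10.3% and 10.7% with HOTAIR-N siRNA, against 8.03%, 7.46% and 6.12% with control siRNA. Its call, like that of the minor DUSP4 isoform NM_057158 and the SPRY4 isoform NM_001293290, was lost in at least 5 of the 6 fits that leave out 1 library. DUSP6 and DUSP4 were 97.7% or more a single isoform in every library, and of the 6 libraries only HOTAIR-N siRNA replicate 1 had reads of a second DUSP10 isoform, at 7.02 expected counts. The main DUSP10 isoform lost its call (adjusted p = 0.033) in all 6 fits that leave out 1 library, and the single DUSP1 isoform did not pass in the isoform test (adjusted p = 0.0506), while both genes passed in the gene test.

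**Figure D4:**
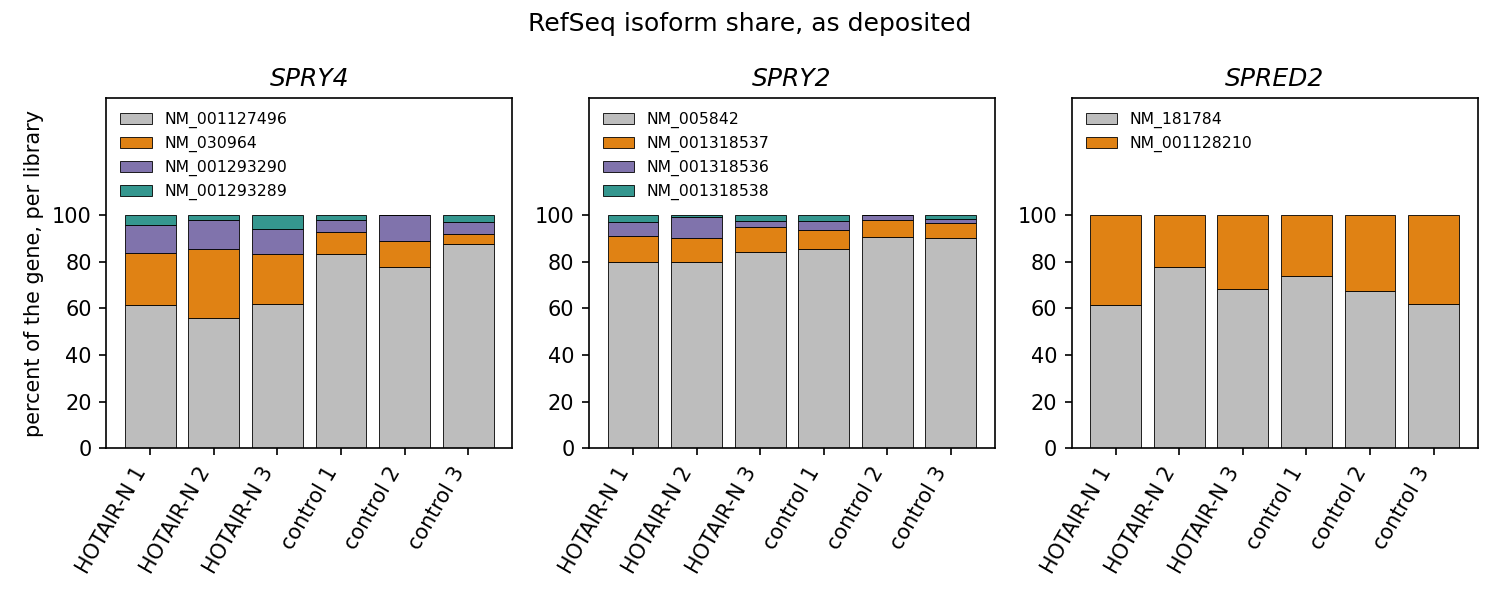
Percent of each gene's TPM held by each RefSeq isoform, per library as deposited, for SPRY4, SPRY2 and SPRED2, with the HOTAIR-N siRNA libraries left of the control libraries. The grey share of NM_001127496 in SPRY4 is 55.8% to 61.9% with HOTAIR-N siRNA and 77.5% to 87.4% with control siRNA, while the SPRED2 shares overlap.

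The 3' untranslated regions (UTRs) of fast feedback genes often carry AU-rich elements, which bind proteins that speed up or slow down decay of the mRNA. The word TATTTAT, which contains the core ATTTA, was found in the 3' UTR of 7 of the 10 genes in GENCODE 29 (longest annotated 3' UTR), against 35.5% of 13301 tested genes, with no allowance for UTR length. The 7 genes were DUSP1, DUSP2, DUSP4, SPRY2, SPRY4, SPRED1 and SPRED2, so the word was present in genes that rose and in SPRED2, which fell. DUSP5, which rose, held no ATTTA at all in 1118 nt. The longer word TTATTTATT was found in DUSP1 and DUSP4 and in 9.5% of all 3' UTRs searched. Sites from DUSP1 at position 102 of the 3' UTR, from DUSP2 at 598 and from SPRY2 at 619 are shown as DNA, 5′ to 3′, with TATTTAT in capitals.
DUSP1: ggctggtcctTATTTATttaacttcac
DUSP2: tagcactttaTATTTATacagaacatt
SPRY2: gtgtaaagaaTATTTATttgaagtttt

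Of 6 genes for proteins that bind AU-rich elements, 2 rose, 3 fell and 1 did not pass. ELAVL1, whose product HuR stabilises such mRNAs, fell to 40.0 ± 2.34 CPM with HOTAIR-N siRNA, against 165.6 ± 2.96 CPM with control siRNA (SD, n = 3 each). This was a log2 fold change of -2.05 (SE 0.06, adjusted p = 8.91e-12). ZFP36, whose product tristetraprolin destabilises them and is itself ERK-induced, rose to 20.7 ± 0.529 CPM with HOTAIR-N siRNA, against 11.8 ± 1.22 CPM with control siRNA (SD, n = 3 each). KHSRP and HNRNPD, decay factors, fell by 0.53 and 0.50 on the log2 scale. The part of these proteins in the DUSP, SPRY and SPRED values was not tested.

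A second word, GACCAAT, was searched because earlier work on these same data had picked it as going with lower expression. It was present in the 3' UTR of 4 of the 10 genes, DUSP1, DUSP4, SPRY4 and SPRED2, against 6.5% of the 13301 genes. The 3' UTRs of DUSP4, SPRY4 and SPRED2 are long, at 3962, 3782 and 2650 nt against a median of 1368 nt, and the share makes no allowance for length. The word GAATATA, also searched, was found in 2 of the 10, DUSP1 and DUSP4, against 15.0% of the 13301 genes. Of the 4 genes with GACCAAT, DUSP1, DUSP4 and SPRY4 rose and SPRED2 fell. The sites of DUSP1, SPRY4 and SPRED2, at positions 195, 3050 and 2593 of the 3' UTR, are shown with the word in capitals. Of the other genes searched by name, ELAVL1 and CAV1 hold the word once each, and SPRY1 and SPRED3 do not hold it. The part of GACCAAT in any of these changes was not tested.
DUSP1: gcacattcggGACCAATatatagtggg
SPRY4: agggggtgaaGACCAATcccttccttt
SPRED2: taatatgtatGACCAATgtagccattg

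Genes around the feedback loop moved in both directions, as did all tested genes, with 28.7% called higher and 28.8% called lower. Of 12 binding partners of Sprouty and SPRED proteins, 1 rose, 5 fell and 6 did not pass, with a median log2 fold change of -0.12. CAV1, the membrane scaffold caveolin, fell to 139.0 ± 4.1 CPM with HOTAIR-N siRNA, against 363.1 ± 14.9 CPM with control siRNA (SD, n = 3 each). This was a log2 fold change of -1.39. GRB2, the adaptor between receptor and SOS, and RASA1, a RAS GTPase-activating protein, fell by 0.53 and 0.67, while CBL, the ubiquitin ligase that Sprouty binds, rose by 0.61. Of 9 other negative regulators, 4 rose, 3 fell and 2 did not pass. RASA2, also a RAS GTPase-activating protein, rose by 0.72 and LZTR1, which directs RAS to degradation, by 0.41, while IL17RD, a feedback antagonist of FGF signalling, fell by 0.74.

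Of 12 genes of the RAS, RAF, MEK and ERK cascade and its scaffolds, 3 rose, 3 fell and 6 did not pass, and the median log2 fold change was 0.00. MAP2K1, a MEK gene, and NRAS, a RAS gene, fell by 0.34 and 0.33 on the log2 scale, and the scaffold gene KSR1 rose by 0.65. Of 11 JNK and p38 kinases and their activators, 3 rose, 5 fell and 3 did not pass. MAPK11, a p38 gene, rose by 1.01, and the p38 activator MAP2K6 and the JNK gene MAPK9 fell by 1.02 and 0.46. MAPK10, a JNK gene, was at 0.138 ± 0.0906 CPM with HOTAIR-N siRNA and 1.09 ± 0.257 CPM with control siRNA (SD, n = 3 each), where the fold change rests on few counts.

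Of 15 other genes known as transcriptional outputs of ERK, 6 rose, 4 fell and 5 did not pass, with a median log2 fold change of 0.15. IER3, an immediate early survival gene, the cytokine gene LIF and the receptor gene EPHA4 rose by 0.83, 0.56 and 1.23. ETV5, an ETS factor that usually follows ERK activity as DUSP6 and SPRY4 do, fell to 37.7 ± 2.14 CPM with HOTAIR-N siRNA, against 62.7 ± 2.89 CPM with control siRNA (SD, n = 3 each). This was a log2 fold change of -0.73 (SE 0.07, adjusted p = 2.35e-07). ETV5 was the ERK output with the largest called fall. Of the other ETS factors in this list, ETV4 had a log2 fold change of 0.44 (adjusted p = 6.45e-06) and ETV1 of -0.42 (adjusted p = 0.000526). The part of ERK activity in these changes was not tested.

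**Figure D5:**
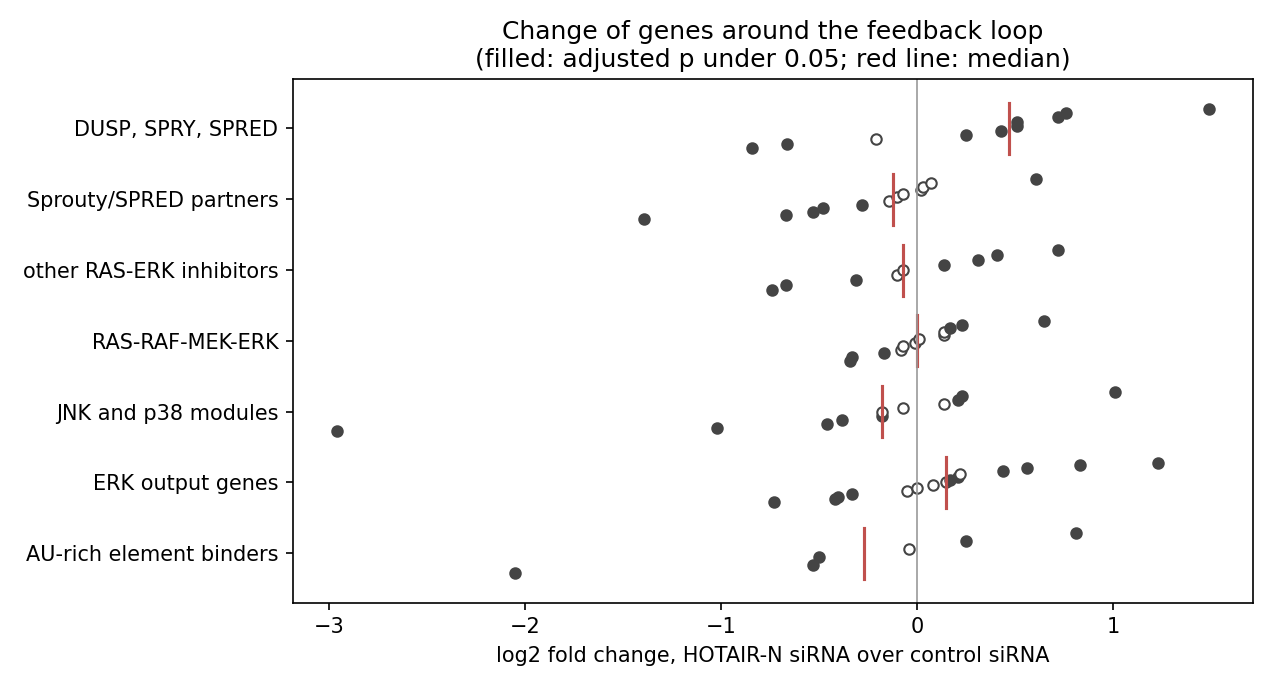
Log2 fold change of each tested gene, HOTAIR-N siRNA over control siRNA, in lists around the feedback loop, with filled points past the test and red lines at the medians. The 10 DUSP, SPRY and SPRED genes have a median of 0.47, while the other lists plotted have medians between -0.27 and 0.15.

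Genes with the pattern most like the extremes were found by the distance between 6-library profiles of log2 CPM, each relative to its control mean, among 12324 other genes. Closest to DUSP2 were the histone genes HIST1H2BD and HIST2H2BE and the actin regulator CYFIP2, with distances of 0.0731, 0.12 and 0.101. Closest to SPRED2 were MFSD14A, NUMB and BICRAL, with distances of 0.0446, 0.0598 and 0.0693. Their log2 fold changes were 1.45 to 1.52 for the genes near DUSP2 and -0.86 to -0.83 for those near SPRED2. The distance includes the difference between the groups, so similar log2 fold changes follow from how these genes were picked.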

How the data were processed

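Per the labels' protocols, ribosomal RNA was removed and libraries were made with a strand-keeping kit for total RNA. STAR 2.6.0c, RSEM 1.3.0 and hg19 are named in the submitters' processing notes. Not given in the sources used here are the annotation and whether counting used strand. Per the file headers, the deposited tables hold expected counts, which are RSEM estimates, TPM, which the authors scaled within each library, and the percent of a gene that each isoform makes up. Deposited lengths were used as given.

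Expected counts were rounded and tested in edgeR 4.0.16 (R 4.3.3) with filterByExpr, TMM and the robust quasi-likelihood test over 15072 genes and 32627 isoforms. Of gene values, 10.9% were not whole. The threshold was an adjusted p of 0.05. The SE is the absolute log2 fold change over the root of the F statistic. The steps were tested on simulated data. Alternatives were scaling by RLE, by the upper quartile or not at all, no filter on low counts or at least 10 in all 6 libraries, DESeq2 1.42.0, limma-voom (limma 3.58.1), a test against a fold of 1.5, a replicate block, and each library left out. Profiles used log2 CPM with a prior count of 2. Promoter sequences came from RefSeq (GRCh38.p14) and 3' UTRs of at least 50 nt from GENCODE 29.

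The 10 genes, the lists and the tests were chosen with earlier results of these data known. All 10 genes are named, and from each list up to 4 tested genes with the smallest p, of which 1 is not reported here. SPRY4-IT1, SPRY4-AS1, ETV1, ETV4 and single isoforms described in full were chosen after their values were seen. Replicates within a group differed by more than sampling noise (chi-square per degree of freedom 2.1 to 14.9).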

Additional observations from a re-analysis of the deposited data

How the results depend on the processing

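The direction of all 10 genes held under every alternative run, and 143 of 150 single values kept their side of the threshold. The counts of 7 genes higher and 2 lower were the same under all scalings, DESeq2, limma-voom and the stricter filter. In the fits that leave out 1 library, 7 were higher each time and 2 to 3 were lower. Exceptions were the test against a fold of 1.5, which called 3 higher and 1 lower among the 10 and 1700 genes in all, against 8672 in the main test, and no filter on low counts, which called 3 lower because SPRED1 passed. Isoform calls were less firm. Of the isoforms of the 10 genes 9 were higher and 2 lower, and 6362 isoforms were called in all. With no filter 1 was lower. When 1 library was left out, 5 to 8 were higher, 1 to 1 lower, and 3551 to 5647 isoforms were called in all. With 1 library left out, the difference of the log2 ratio was 0.48 to 0.55 for SPRY4 to SPRY2, -0.76 to -0.55 for SPRED2 to SPRED1 and 0.15 to 0.26 for DUSP6 to DUSP5. Whether same-numbered libraries of the 2 groups were handled together is not given in the sources used here. Same-numbered libraries deviated from their group means with correlations of -0.12, 0.02 and -0.04, and unlike-numbered ones with -0.14 to 0.17. With 3 libraries per group these values cannot decide whether the libraries were paired. With the replicate number as a block, 7984 genes were called, 7 of the 10 genes were higher and 2 lower, and for isoforms 4 were higher, 1 lower and 2012 called in all. Depth limits DUSP10 and DUSP1 most among the 10 genes.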
